A study of Rattus norvegicus with 18 samples.

Results

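Cholesterol and fatty acid synthesis was followed across rat pXEN cells in 6 culture states through 36 genes, found by symbol among the 28695 rows of the count tables. Of these, 21 encode enzymes and control factors of sterol synthesis and 15 encode enzymes and control factors of fatty acid synthesis. All 21 sterol genes and 13 of the 15 fatty acid genes had enough counts to be among the 11503 genes tested, and the other two, Elovl6 and Thrsp, had 3 and 2 counts over all libraries together.

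The cells, named rat XENP in the labels, are extraembryonic endoderm precursors from blastocysts of the WKY strain, and all were labelled female. RNA of 18 cultures was sequenced, 3 for each state, at passages 32 to 51. Normal cells were kept in the routine medium. Vacuolated cells were obtained in that medium with 0.5 µM CHIR99021, a GSK3 inhibitor, either left unsorted or sorted, or with 14% BCS, an additive known here by its abbreviation alone. The vesicles formed under CHIR99021, in medium that either held serum or did not. The protocol for vesicles names 3 µM CHIR99021, 10 ng/ml murine LIF and N2B27 medium, which was read as the serum-free condition, so the dose and medium of the serum vesicles are not clear. The serum-free and serum vesicles may therefore differ in more than serum, and these factors cannot be told apart. The labels state independent preparation of the samples but not separate derivation of each, so p-values measure the spread between these cultures. In bulk RNA, fewer cells of a type and less RNA per cell cannot be told apart either.

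Cholesterol is built from acetyl-CoA through mevalonate, isoprenoid units, squalene and lanosterol. The genes of this route are known targets of SREBP-2, encoded by Srebf2, a membrane-bound transcription factor that is held in the endoplasmic reticulum by INSIG proteins while sterols are plentiful and is cut free and sent to the nucleus when they are scarce. SREBP-1, encoded by Srebf1, is the family member known mainly for the genes of fatty acid synthesis and desaturation, which draw on the same acetyl-CoA and on NADPH. Serum carries cholesterol and fatty acids in lipoproteins and on albumin. SREBP activity is set largely by cleavage of the protein, which RNA counts do not measure.

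Libraries held 4.05 M to 12.1 M counts, of which a pair of rows with clone-style names took 37.6 to 61.1%. Levels are given as CPM, counts scaled to a common library size after TMM correction, and since transcript length is not taken into account they are compared between samples and not between genes. Differences are log2 fold changes with their standard error (SE) from edgeR's quasi-likelihood test over all 11503 genes, and a gene passed at a Benjamini-Hochberg adjusted p under 0.05. Where a fold or a log2 fold change is followed by one more value in brackets, that value is its adjusted p. All 10 markers of extraembryonic endoderm used to check the cell type had counts in every group, and their summed level was 5083 to 5277 CPM in normal cells against 2950 to 3090 CPM (serum vesicles) and 3465 to 3851 CPM (serum-free). Against normal cells, 7 of the 10 passed lower and 0 higher in serum vesicles, where 28.8% and 31.7% of all genes did. In serum-free vesicles 6 passed lower and 1 higher, where 27.5% and 30.2% of all genes did. Where a CPM is given with ±, the values are the mean and SD of the 3 libraries of the group. Pou5f1 stood at 118 ± 15.7 CPM in normal cells against 1.25 ± 0.482 and 0.746 ± 0.824 in the vesicles. Of 9 fibroblast markers, 5 or 6 had 0 counts in each group and the sum reached at most 15.9 CPM. The 7 adipocyte markers summed to at most 2.91 CPM, with Lep and Cfd at 0 counts in all groups. The 8 markers of visceral endoderm and hepatocytes summed to 7.87 to 9.21 CPM in normal cells against 39.9 to 52.2 CPM (serum vesicles) and 52.6 to 183 CPM (serum-free), with Alb at 0 counts in both vesicle groups. Of 6 trophoblast markers, Cdx2 stood at 24.96 ± 5.79 and 22.2 ± 4.44 CPM in serum and serum-free vesicles and at 0 in normal cells, and Hand1 had 0 counts throughout. Only 2 of the 6 were tested, and in each vesicle group 1 passed higher and 1 lower than in normal cells. Elf5 and Tfap2c had counts in normal cells and 0 in serum vesicles. Of 5 blood markers, Hbb had 0 counts in all groups, and their sum reached at most 8.13 CPM.

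The sterol genes were first compared between serum-free and serum vesicles, the contrast in which the medium is labelled by its serum. Genes from the opening step of the mevalonate route, Acat2, to the last step of cholesterol synthesis, Dhcr7, were higher without serum, among them Fdps, Idi1 and Hsd17b7. In all, 11 of 21 sterol genes (52.4%) were higher and 0 lower, where 24.4% of all genes tested passed, 12.9% higher and 11.5% lower. The median log2 fold change of the 21 genes was 0.44, and that of all genes 0.02. The changes were moderate, between 1.31-fold for Sqle and 1.94-fold for Hsd17b7.

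In the mevalonate part of the route, Fdps, which makes farnesyl diphosphate, stood at 164, 149 and 145 CPM in the 3 serum vesicle libraries and at 264, 273 and 276 CPM in the serum-free ones. The groups lay apart, and the rise was 1.77-fold (log2 fold change 0.83 ± 0.10, adjusted p = 6.41e-06). Idi1, the isomerase that supplies the building blocks for Fdps, went from 48.8, 52.9 and 45.4 CPM to 83.6, 83.8 and 72.7 CPM, again without overlap, a 1.63-fold rise (adjusted p = 6.83e-04). Acat2, the thiolase of the opening step, measured 10.2, 7.79 and 8.53 CPM with serum and 17.1, 12.99 and 14.6 CPM without (1.67-fold, adjusted p = 0.00689). Hmgcs1, which makes HMG-CoA, measured 88.2, 72.5 and 72.2 CPM with serum and 124, 107 and 96.7 CPM without (1.40-fold, adjusted p = 0.00889). All 4 genes were separated between the groups. How many of all genes tested were separated in this way was not counted, here or in the comparisons below. The kinase Mvk missed the threshold (log2 fold change 0.31 ± 0.18, adjusted p = 0.206), and so did the next 2 enzymes of the chain, Pmvk (0.53 ± 0.42, 0.374) and Mvd (-0.05 ± 0.23, 0.896). Pmvk was measured on 291 counts over all libraries.

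From squalene onward, Hsd17b7, a ketosteroid reductase, showed the biggest fold of the sterol genes in this comparison, with 16.7, 9.32 and 12.7 CPM in serum vesicles and 22.6, 22.8 and 29.3 CPM in serum-free vesicles (1.94-fold, log2 fold change 0.95 ± 0.21, adjusted p = 0.00209). Its unstranded counts were only 0.509 times its strand-specific ones, and it passed with either. Fdft1, squalene synthase, measured 44.1, 24.8 and 35.3 CPM with serum and 55.5, 51.6 and 49.6 CPM without (1.51-fold, adjusted p = 0.0126). Msmo1, which oxidises the methyl groups of lanosterol products, measured 124, 102 and 112 CPM with serum and 136, 169.6 and 169.9 CPM without (1.41-fold, 0.0135). None of the 3 genes overlapped between the groups. Cyp51, the lanosterol demethylase, measured 144, 107 and 122 CPM with serum and 179, 157 and 157 CPM without (1.32-fold, 0.0189). Sqle, squalene epoxidase, measured 57.4, 48.6 and 51.2 CPM with serum and 68.0, 66.2 and 72.1 CPM without (1.31-fold, 0.0208). Dhcr7, the reductase that yields cholesterol itself, measured 75.9, 69.3 and 74.0 CPM with serum and 108, 94.7 and 96.3 CPM without (1.36-fold, 0.0126). These 3 also lay apart between the groups. The steps Lss, Tm7sf2, Nsdhl, Ebp and Sc5d did not pass, with log2 fold changes from -0.26 (Nsdhl) to 0.54 (Tm7sf2, adjusted p = 0.0547).

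Of the control genes, Insig1, which encodes the anchor of the SREBP complex and is itself a known SREBP target, measured 199, 166 and 139 CPM in serum vesicles and 242, 274 and 249 CPM in serum-free vesicles (1.52-fold, adjusted p = 0.00202). Srebf2 itself did not pass (log2 fold change 0.15 ± 0.14, adjusted p = 0.468), with 143, 113 and 163 CPM against 173, 149.7 and 141 CPM, so its groups overlapped. Stard4, a cytosolic sterol carrier, did not pass either (0.12 ± 0.15, 0.606).

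The number of sterol genes passing in this comparison differed between fits. With only the 6 vesicle libraries in the fit, 4 passed, namely Fdps, Idi1, Hsd17b7 and Insig1. In the added fit without the vesicle libraries of the passages that the groups do not share, which keeps passages 32 and 35, 8 passed. The shares of all genes given above and below belong to the fit over all 18 libraries, and those under other fits are not given. Leaving out 1 library ended the calls of Fdft1 without replicate 2 of the serum vesicles (adjusted p = 0.0745), of Sqle without replicate 2 or 3 of the serum vesicles or replicate 3 of the serum-free vesicles (adjusted p = 0.0579 to 0.0716), of Cyp51 without replicate 2 or 3 of the serum vesicles or replicate 1 of the serum-free vesicles (adjusted p = 0.0534 to 0.0800) and of Msmo1 without replicate 2 or 3 of the serum-free vesicles (adjusted p = 0.0524 to 0.0531). Without serum vesicle replicate 2 the log2 fold change of Fdft1 was 0.39. Markers of other cells differed between these groups too. Hnf4a, a regulator in visceral endoderm and hepatocytes, measured 75.9, 64.3 and 51.9 CPM in serum-free against 44.9, 43.8 and 34.1 CPM in serum vesicles. Most counts of the other markers on its list came from serum-free replicate 2, with 252 of Afp, 346 of Apoa1, 219 of Apoa4, 87 of Fgb and 68 of Apob against 0 to 5 in replicates 1 and 3. Without that library 10 sterol genes passed, all higher, Msmo1 being the one lost. Summed endoderm markers were higher in serum-free vesicles (levels above), summed blood markers measured 2.68 to 8.13 against 0.461 to 3.62 CPM and summed fibroblast markers 1.09 to 2.07 against 3.19 to 15.9 CPM. Of the 10 endoderm markers tested, however, only 2 passed higher in serum-free vesicles and 0 lower, where 12.9% and 11.5% of all genes did. Of the 3 blood markers tested, 1 passed higher and 1 lower in serum-free vesicles. The part of these markers in the differences was not tested.

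**Figure D1:**
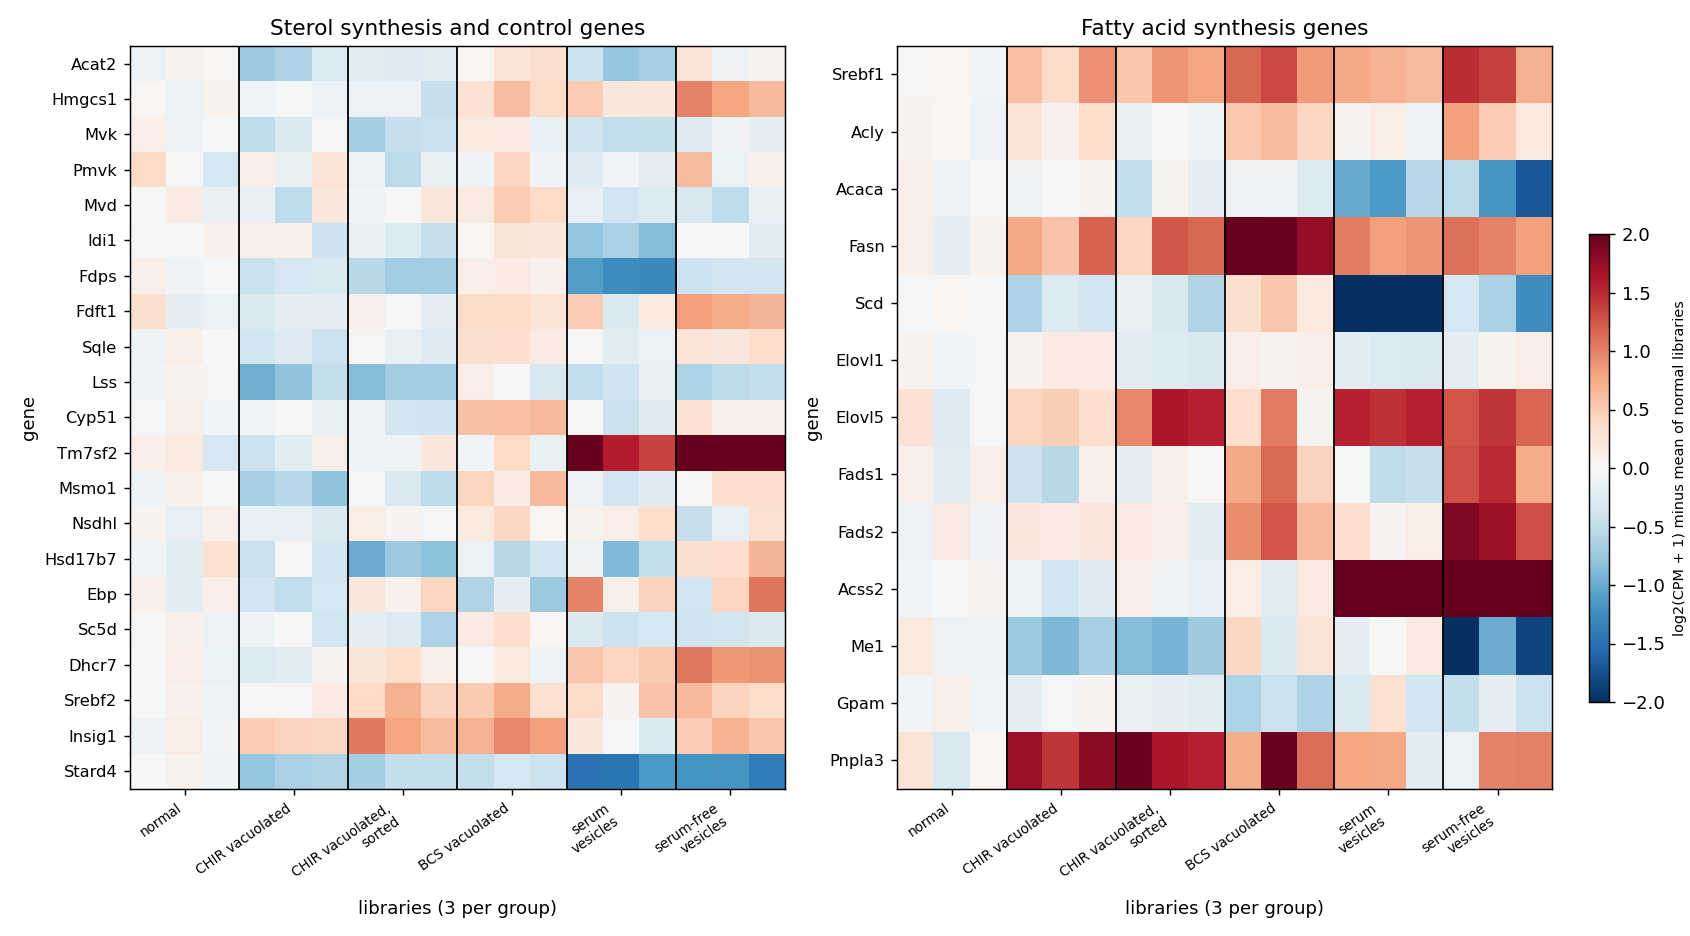
Level of each tested gene (rows) in each of the 18 libraries (columns, 3 per group) as log2(CPM + 1) minus the mean of the 3 normal libraries, with colours saturating at 2 in either direction. The sterol genes Fdps, Idi1 and Hsd17b7 lie lower on the colour scale in serum than in serum-free vesicles, while Tm7sf2 and Acss2 are high and Stard4 is low in both vesicle groups.

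**Figure D2:**
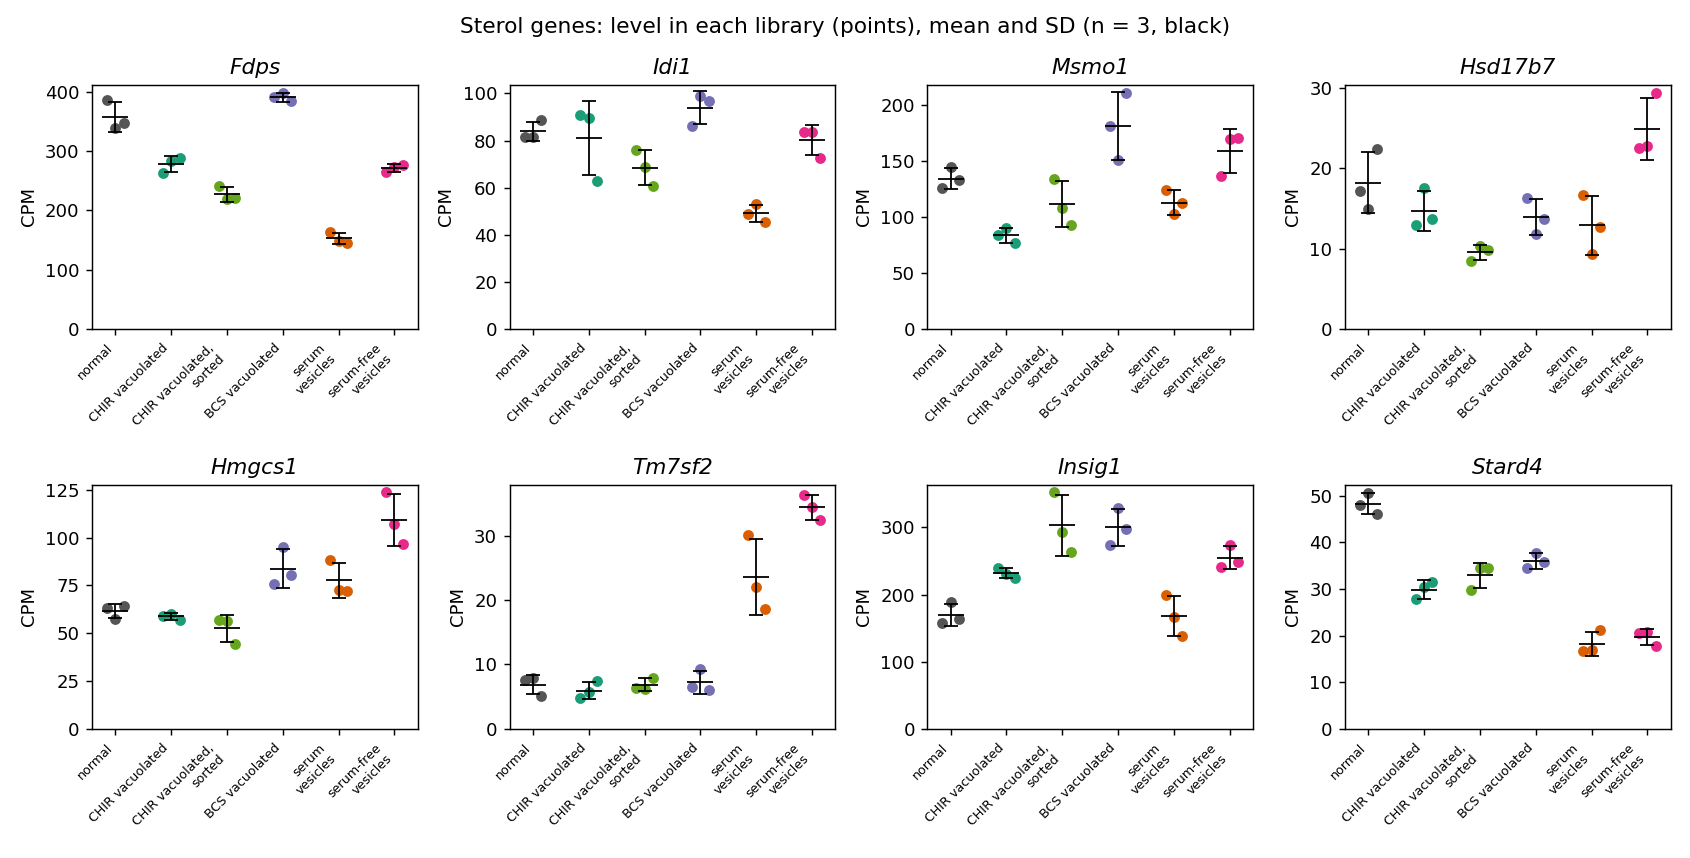
CPM of 8 sterol genes in each library (coloured points, 3 per group) with the group mean and SD in black. Fdps and Idi1 are lowest in serum vesicles, Hsd17b7 is highest in serum-free vesicles, and Stard4 is highest in normal cells.

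The promoters of the genes were searched for the letters bound by SREBP and its partners. NF-Y, which binds CCAAT, and factors that bind GGGCGG are known to act beside SREBP at such promoters. RefSeq promoters on GRCr8, which run from 250 bases before to 50 bases after the annotated start, were matched by symbol for 29 of the 36 genes, with 30 entries since Srebf1 has 2 starts. Acaca, Elovl6, Fasn, Fdft1, Pmvk, Sqle and Stard4 had no entry. Letters were searched on both strands.

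CCAAT was found in 14 of 17 sterol promoters (82.4%), against 38.1% of the promoters of tested genes and 37.5% of all promoters of this length. It occurred at 2 or more places in 10 of the 17 (58.8%, against 14.0% for tested genes and 11.2% for all). Of 13 fatty acid entries, 9 held it (69.2%). GGGCGG was found in 15 of 17 sterol promoters (88.2%) and 9 of 13 fatty acid entries (69.2%), against 63.6% for tested genes and 33.1% for all. TCACNCCAC, a form of the sterol regulatory element, was found in 0 of the 30 entries and in 1.1% of all promoters. TCACCCCAC with at most 1 mismatch was found in 4 of 17 sterol and 2 of 13 fatty acid entries, against 9.7% for tested genes and 9.5% for all. CACGTG, which was searched as well, was near the share of tested genes. It was found in 2 of 17 sterol (11.8%) and 1 of 13 fatty acid entries (7.7%), against 9.3% for tested genes and 6.4% for all. Of the sterol genes with a promoter, 6 of the 9 that passed higher without serum held the CCAAT letters, and 8 of the 8 that did not pass. This split follows the calls and not the size of the difference, and Fdft1 and Sqle, which passed, had no entry. It therefore cannot decide whether the letters go with the difference between vesicles.

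The stretches that hold these letters are shown for 5 sterol genes that rose without serum and hold CCAAT at 2 or more places, for Nsdhl, which holds it at 5 places and did not pass, and for the fatty acid desaturase gene Fads1. They are written 5′ to 3′ along the gene, each from 10 bases before the first match to 10 bases after the last, with CCAAT and its reverse complement ATTGG in capitals. On GRCr8 they lie for Hmgcs1 at chr2:53382106-53382185 (plus strand, 198 to 119 bases before the start), for Idi1 at chr17:66547545-66547600 (minus strand, 76 to 21 bases before the start), for Fdps at chr2:176804887-176804956 (minus strand, 140 to 71 bases before the start), for Msmo1 at chr16:29746930-29747059 (plus strand, 183 to 54 bases before the start), for Hsd17b7 at chr13:84722765-84722940 (minus strand, 186 to 11 bases before the start), for Nsdhl at chrX:155817142-155817309 (plus strand, 218 to 51 bases before the start) and for Fads1 at chr1:216252561-216252585 (plus strand, 131 to 107 bases before the start).
Hmgcs1: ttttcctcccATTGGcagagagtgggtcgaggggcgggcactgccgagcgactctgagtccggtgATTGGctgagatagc
Idi1: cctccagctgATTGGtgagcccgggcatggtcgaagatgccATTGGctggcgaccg
Fdps: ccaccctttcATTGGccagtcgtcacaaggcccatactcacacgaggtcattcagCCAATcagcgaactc
Msmo1: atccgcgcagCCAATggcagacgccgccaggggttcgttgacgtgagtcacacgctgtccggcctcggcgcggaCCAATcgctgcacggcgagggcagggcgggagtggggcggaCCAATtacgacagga
Hsd17b7: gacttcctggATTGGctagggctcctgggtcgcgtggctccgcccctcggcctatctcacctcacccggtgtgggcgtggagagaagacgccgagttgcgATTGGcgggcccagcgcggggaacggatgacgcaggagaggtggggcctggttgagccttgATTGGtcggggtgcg
Nsdhl: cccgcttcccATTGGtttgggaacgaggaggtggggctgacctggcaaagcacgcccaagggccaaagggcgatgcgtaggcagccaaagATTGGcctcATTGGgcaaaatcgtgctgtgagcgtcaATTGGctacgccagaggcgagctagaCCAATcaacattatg
Fads1: ctcggctcagCCAATgggagggcgc

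**Figure D3:**
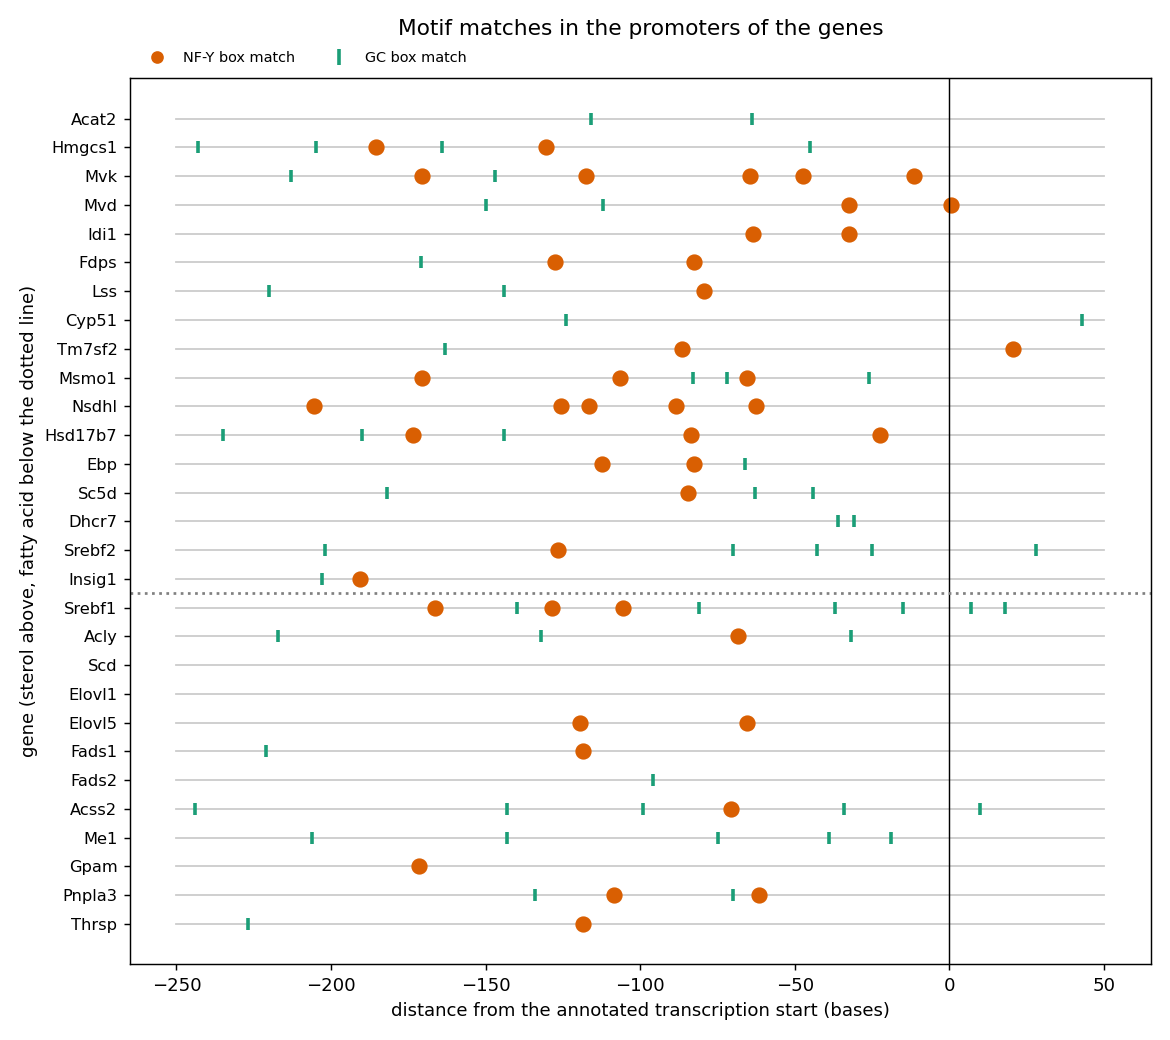
Positions of CCAAT (NF-Y box, orange points) and GGGCGG (GC box, green ticks) on either strand in the RefSeq promoters of 29 genes, by distance in bases from the annotated start, with both entries of Srebf1 on 1 line. Of 17 sterol promoters 14 hold an orange point, among them both genes that rose without serum and genes that did not pass.

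Against normal cells, the vesicles differed in the sterol genes in both directions. In serum vesicles 4 of 21 were higher and 7 lower, where 31.7% of all genes were higher and 28.8% lower. In serum-free vesicles 7 were higher and 4 lower, where the shares of all genes were 30.2% and 27.5%. With 52.4% of the sterol genes passing in each of the comparisons and 60.4% and 57.7% of all genes, these counts are near the background. Both comparisons use the same 3 normal libraries. Mitochondrially encoded genes took 7.91 to 9.31% and 7.11 to 9.43% of the counts outside the 2 most abundant rows in serum and serum-free vesicles, against 3.13 to 3.38% in normal cells, and the marker sums above differed too. Their part in these differences was not tested.

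Tm7sf2, a sterol reductase, had the biggest rise. It stood at 7.54, 7.87 and 5.15 CPM in normal cells, 30.1, 22.0 and 18.7 in serum vesicles and 36.3, 34.5 and 32.5 in serum-free vesicles, with no overlap between normal cells and either vesicle group (3.49-fold, adjusted p = 3.10e-07, and 5.05-fold, adjusted p = 4.28e-09). Stard4 fell, from 48.1, 50.7 and 46.2 CPM in normal cells to 16.7, 16.8 and 21.2 CPM in serum vesicles and 20.5, 20.8 and 17.7 CPM in serum-free vesicles (2.66-fold, 6.36e-09, and 2.46-fold, 2.12e-08). Fdps fell 2.34-fold in serum vesicles (adjusted p = 4.05e-10) and 1.32-fold in serum-free vesicles (0.00179) from 386, 339 and 348 CPM in normal cells, so that all serum-free values lay between the normal and the serum vesicle values. Idi1 fell 1.71-fold in serum vesicles (3.36e-05), while in serum-free vesicles its log2 fold change was -0.07 ± 0.13 (0.676) from 81.5, 81.6 and 88.7 CPM. Sc5d, a sterol desaturase, fell in both (1.29-fold, 0.0169, and 1.28-fold, 0.0216). Acat2, Mvk and Hsd17b7 fell in serum vesicles by 1.59-fold, 1.40-fold and 1.42-fold (adjusted p = 0.00486, 0.0212 and 0.0482), and Lss fell 1.49-fold in serum-free vesicles (0.00671).

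Dhcr7 rose in both, 1.42-fold in serum vesicles (adjusted p = 0.00166) and 1.93-fold in serum-free vesicles (8.72e-07), from 51.5, 56.4 and 46.6 CPM. Hmgcs1 rose 1.26-fold (0.0341) and 1.77-fold (1.07e-05) from 63.2, 57.2 and 64.5 CPM, and Srebf2 1.27-fold (0.0353) and 1.41-fold (0.00389) from 109.8, 117 and 103 CPM. Insig1, Fdft1 and Sqle rose in serum-free vesicles, 1.503-fold, 1.69-fold and 1.22-fold (adjusted p = 5.35e-04, 5.13e-04 and 0.0458). In serum vesicles their log2 fold changes were -0.01 ± 0.13, 0.16 ± 0.17 and -0.11 ± 0.12 and did not pass. In serum vesicles, leaving out 1 of the libraries compared, or 1 of the others that share the estimate of spread, ended the calls of Hmgcs1 without replicate 1, 2 or 3 of the normal cells, replicate 1 of the BCS group or replicate 1 of the serum vesicles (adjusted p = 0.0546 to 0.197), of Mvk without replicate 1 of the normal cells or replicate 2 of the serum vesicles (adjusted p = 0.0515 to 0.0771), of Hsd17b7 without replicate 1 or 3 of the normal cells, replicate 1 or 3 of the CHIR99021 group, replicate 3 of the BCS group, replicate 2 or 3 of the sorted cells, replicate 2 or 3 of the serum vesicles or replicate 2 of the serum-free vesicles (adjusted p = 0.0502 to 0.255) and of Srebf2 without replicate 1, 2 or 3 of the normal cells, replicate 1 of the BCS group or replicate 1 or 3 of the serum vesicles (adjusted p = 0.0557 to 0.206). Other settings ended some of these calls as well. Without the low count filter those of Hmgcs1, Srebf2 and Mvk ended (adjusted p = 0.115, 0.0740 and 0.0508), and with the 2 groups alone those of Hmgcs1, Srebf2 and Hsd17b7 (0.0532, 0.0624 and 0.0942). On unstranded counts the calls of Hmgcs1 and Hsd17b7 ended (0.0503 and 0.195), as they did with passage as a covariate (0.0732 and 0.0980). Hsd17b7 also missed the threshold in DESeq2 (0.0663) and with RLE scaling (0.0502), and its log2 fold change in serum vesicles, -0.50, ran from -0.76 without serum vesicle replicate 1 to -0.30 without replicate 2 and was -0.33 without normal replicate 3. That of Srebf2 was 0.22 without serum vesicle replicate 3. In serum-free vesicles, leaving out 1 library ended the calls of Sqle without replicate 1 or 3 of the normal cells, replicate 1, 2 or 3 of the CHIR99021 group, replicate 1 or 3 of the BCS group, replicate 2 of the sorted cells or replicate 1, 2 or 3 of the serum-free vesicles (adjusted p = 0.0509 to 0.170) and of Sc5d without replicate 1 or 2 of the normal cells or replicate 1 or 2 of the serum-free vesicles (adjusted p = 0.0545 to 0.0788). The Sqle call also ended without the low count filter, on unstranded counts and with passage as a covariate (0.146, 0.0520 and 0.0993), and that of Sc5d without the filter (0.0557). Without normal replicate 1 the count in serum vesicles was 7.

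The 2 unsorted routes to vacuolation were then compared with each other and with normal cells. The sterol genes that passed between the routes, among them Msmo1, Cyp51, Sqle and Fdps, were all higher with BCS than with CHIR99021. In this direct comparison 9 of 21 were higher with BCS (42.9%) and 0 lower, where 13.2% of all genes passed, 7.4% higher and 5.83% lower, and the median log2 fold change was 0.45 against -0.01 for all genes. The summed extraembryonic endoderm markers stood at 6288 to 7914 CPM with BCS and 4720 to 5491 CPM with CHIR99021. Single markers went both ways, since of the 10 tested 5 passed higher with BCS and 1 lower. The part of these markers in the sterol differences was not tested.

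Msmo1 differed most between the routes. It stood at 83.7, 90.0 and 76.5 CPM with CHIR99021, 125, 144 and 132 CPM in normal cells and 181, 150.2 and 210.4 CPM with BCS, and the 3 groups did not overlap. BCS-vacuolated cells had 2.17-fold more of it than CHIR99021-vacuolated cells (log2 fold change 1.11 ± 0.14, adjusted p = 1.20e-05). Cyp51 stood at 141, 146 and 132 CPM with CHIR99021 and 219.8, 223 and 230.1 CPM with BCS (1.61-fold, 4.77e-04), beside 142, 157 and 139.7 CPM in normal cells. Sqle was 1.55-fold higher with BCS (70.4, 71.5 and 63.1 against 43.5, 47.1 and 41.7 CPM, 0.00101). Fdps was 1.41-fold higher (391, 398 and 383 against 262, 283 and 287 CPM, 0.00203). The groups lay apart for all of these. Acat2, Lss, Hmgcs1, Fdft1 and Srebf2 made up the 9 and were higher with BCS by 1.74-fold, 1.64-fold, 1.43-fold, 1.49-fold and 1.38-fold (adjusted p = 0.00565, 0.00777, 0.0108, 0.0252 and 0.0237). Insig1 did not pass between the routes (log2 fold change 0.37 ± 0.13, 0.0619), with 273, 329 and 298 CPM with BCS and 240.2, 231 and 225 CPM with CHIR99021.

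Against normal cells, CHIR99021-vacuolated cells had 4 sterol genes lower and 1 higher, where 7.62% of all genes passed, 3.13% lower and 4.49% higher. The 4 were Lss (1.71-fold, adjusted p = 0.00565), Stard4 (1.61-fold, 0.00165), Msmo1 (1.61-fold, 0.00295) and Fdps (1.29-fold, 0.0266), and the gene that rose was Insig1 (1.37-fold, 0.0342). BCS-vacuolated cells had 5 higher and 1 lower, where 11.2% and 9.51% of all genes were. Insig1 rose 1.77-fold (1.01e-04), Cyp51 1.54-fold (7.96e-04), Srebf2 1.45-fold (0.00737), Hmgcs1 1.36-fold (0.0192) and Msmo1 1.35-fold (0.0320), while Stard4 fell 1.34-fold (0.0263). In all 28.6% of the sterol genes and 20.7% of all genes passed. Stard4 was lower than in normal cells in all 5 other states, with 27.8, 30.4 and 31.6 CPM with CHIR99021, 34.4, 37.8 and 35.7 CPM with BCS and 29.8, 34.5 and 34.5 CPM after the sort, and all 5 comparisons share the normal libraries as reference.

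Leaving out 1 library ended the CHIR99021 calls of Fdps without replicate 1 or 3 of the normal cells or replicate 1, 2 or 3 of the CHIR99021 group (adjusted p = 0.0583 to 0.150), of Insig1 without replicate 1 or 3 of the normal cells or replicate 1, 2 or 3 of the CHIR99021 group (adjusted p = 0.0720 to 0.144) and of Lss without replicate 1 of the CHIR99021 group (adjusted p = 0.0578). With BCS it ended those of Msmo1 without replicate 1 or 3 of the normal cells or replicate 1 or 3 of the BCS group (adjusted p = 0.0768 to 0.184), of Stard4 without replicate 1, 2 or 3 of the normal cells or replicate 1 or 3 of the BCS group (adjusted p = 0.0504 to 0.107) and of Hmgcs1 without replicate 2 of the normal cells or replicate 2 of the BCS group (adjusted p = 0.0752 to 0.0823). Between the routes it ended those of Fdft1 without replicate 1, 2 or 3 of the CHIR99021 group or replicate 1 or 3 of the BCS group (adjusted p = 0.0505 to 0.103), of Lss without replicate 1 of the CHIR99021 group or replicate 1 of the BCS group (adjusted p = 0.0624 to 0.0654) and of Srebf2 without replicate 1 or 2 of the CHIR99021 group or replicate 1 or 2 of the BCS group (adjusted p = 0.0903 to 0.101). Without the low count filter the CHIR99021 call of Fdps and the BCS call of Stard4 ended as well (adjusted p = 0.114 and 0.109). In CHIR99021-vacuolated cells the count was 3 without normal replicate 1 or 3 or CHIR99021-vacuolated replicate 2, and 2 without CHIR99021-vacuolated replicate 1.

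Sorted CHIR99021-vacuolated cells had 5 sterol genes lower and 2 higher than normal cells, where 25.9% of all genes passed, 11.5% lower and 14.4% higher. Hsd17b7 fell 1.91-fold (8.53, 10.4 and 9.78 against 17.2, 14.97 and 22.4 CPM, adjusted p = 0.00229), and on unstranded counts, where it has fewer reads, it did not pass (adjusted p = 0.0680). Lss fell 1.74-fold (0.00140), Fdps 1.58-fold (4.79e-05), Mvk 1.47-fold (0.0188) and Stard4 1.46-fold (0.00346). Both regulators rose, Insig1 1.79-fold (353, 294 and 263 CPM, 5.56e-05) and Srebf2 1.45-fold (145, 181 and 151 CPM, 0.00577). Against unsorted cells, Srebf2 was the 1 sterol gene that passed (1.38-fold, 0.0277), where 11.7% of all genes passed, 6.69% higher and 5.05% lower. An unadjusted p under 0.05 in edgeR was found for 7 of 21 sterol genes and for 3007 of all 11503 genes. The count of sterol genes passing was 5 in DESeq2, 4 without the low count filter and 7 with the 2 groups alone. It was 0 without CHIR99021-vacuolated replicate 1 or 2 or sorted replicate 2, and 2 without CHIR99021-vacuolated replicate 3, BCS-vacuolated replicate 1, serum vesicle replicate 1 or serum-free vesicle replicate 3. It was 3 without sorted replicate 3, 4 without BCS-vacuolated replicate 2, serum vesicle replicate 3 or serum-free vesicle replicate 1, and 5 without serum vesicle replicate 2. The call of Srebf2 ended without CHIR99021-vacuolated replicate 1 or 2 or sorted replicate 2 (adjusted p = 0.104 to 0.165). That of Mvk against normal cells ended without normal replicate 1 or sorted replicate 1 (0.0759 to 0.0839) and without the low count filter (0.0667). Mitochondrially encoded genes took 6.76 to 8.91% of the counts outside the 2 most abundant rows in sorted cells, 2.88 to 4.08% in unsorted and 3.13 to 3.38% in normal cells, and their part in these differences was not tested.

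**Figure D4:**
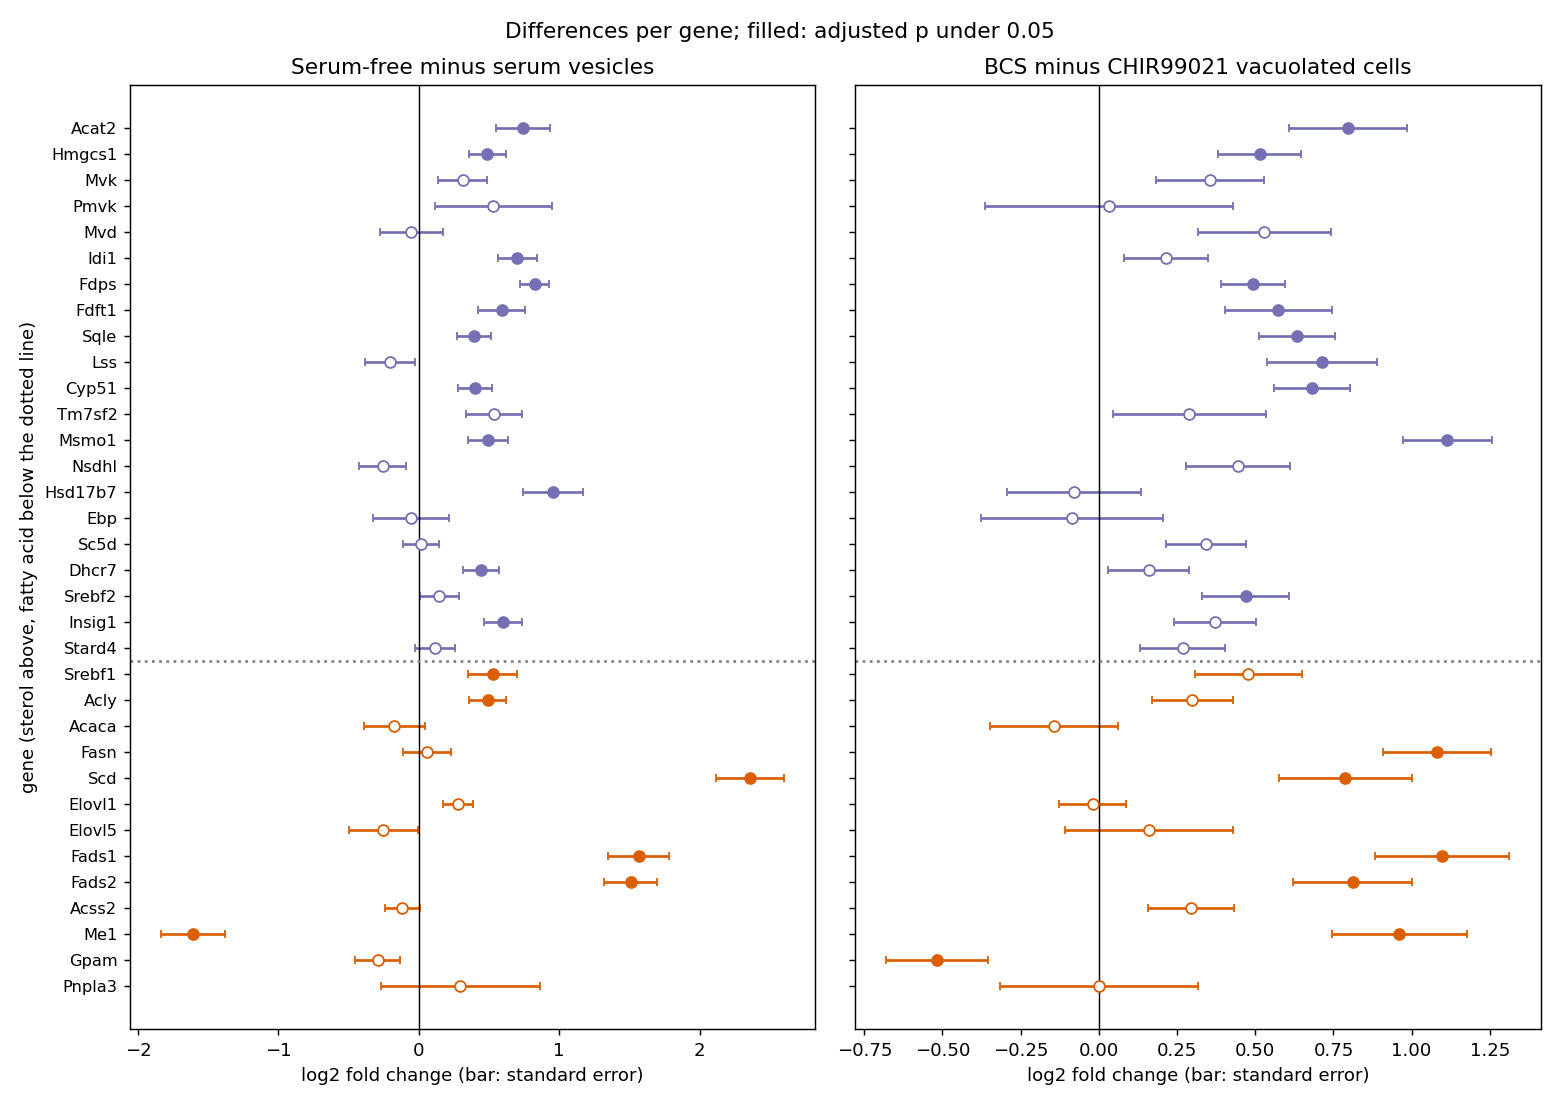
Log2 fold change of the 34 tested genes with its standard error, for serum-free minus serum vesicles (left) and BCS- minus CHIR99021-vacuolated cells (right), where filled points passed at an adjusted p under 0.05 and the horizontal scales differ. On the left 11 sterol genes are filled and all lie above 0, and Scd, Fads1 and Fads2 lie farthest to the right with Me1 farthest to the left.

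The fatty acid genes that changed between the vesicle groups did so in both directions. Scd, which makes monounsaturated fatty acids, was higher without serum by 5.13-fold and the polyunsaturated fatty acid desaturases Fads1 and Fads2 by 2.96-fold and 2.84-fold, while the malic enzyme gene Me1 was 3.05-fold lower. In all, 5 of 13 fatty acid genes rose (38.5%) and 1 fell, against 12.9% and 11.5% of all genes.

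Scd stood at 13.7, 18.4 and 7.38 CPM in serum vesicles and at 89.4, 72.6 and 47.8 CPM in serum-free vesicles (log2 fold change 2.36 ± 0.24, adjusted p = 3.32e-06). Every serum-free library lay above every serum library, and all lay below the 112, 116 and 113 CPM of normal cells. Fads1, whose promoter stretch is given above, measured 23.9, 16.8 and 17.5 CPM with serum and 61.4, 70.8 and 41.3 CPM without (1.57 ± 0.22, 2.68e-05). Fads2 measured 15.4, 12.4 and 13.4 CPM with serum and 46.1, 40.8 and 30.6 CPM without (1.51 ± 0.19, 6.96e-06). For both, the serum-free values also lay above the 26.4, 20.5 and 26.8 CPM (Fads1) and 10.9, 13.6 and 11.4 CPM (Fads2) of normal cells, and serum vesicles did not pass against normal cells (log2 fold change -0.34 ± 0.22 and 0.20 ± 0.21, adjusted p = 0.199 and 0.417).

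Me1, a source of NADPH, measured 27.8, 32.1 and 36.4 CPM with serum and 7.16, 15.5 and 8.27 CPM without (log2 fold change -1.61 ± 0.23, adjusted p = 2.68e-05), with no overlap. Acly, which cleaves citrate to acetyl-CoA, measured 260.5, 277 and 232 CPM with serum and 440.4, 356 and 286 CPM without (1.40-fold, 0.00856). Srebf1 measured 51.4, 48.8 and 46.8 CPM with serum and 84.5, 78.6 and 49.5 CPM without (1.44-fold, 0.0289), and serum-free replicate 3 overlapped the serum libraries. Counts per gene do not tell transcripts of its 2 annotated starts apart. Scd has close copies in the genome, and how reads shared between copies were counted is not given in the sources used here. The synthase Fasn and the carboxylase Acaca did not pass, with log2 fold changes of 0.06 ± 0.17 (0.839) and -0.17 ± 0.22 (0.600), nor did Acss2, Elovl1, Elovl5, Gpam or Pnpla3. With the vesicle libraries alone in the fit, 4 fatty acid genes passed, and Srebf1 and Acly did not. Leaving out 1 library ended the calls of Srebf1 without replicate 2 or 3 of the serum vesicles or replicate 1 or 2 of the serum-free vesicles (adjusted p = 0.0522 to 0.121) and of Acly without replicate 1 of the serum-free vesicles (adjusted p = 0.0684).

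**Figure D5:**
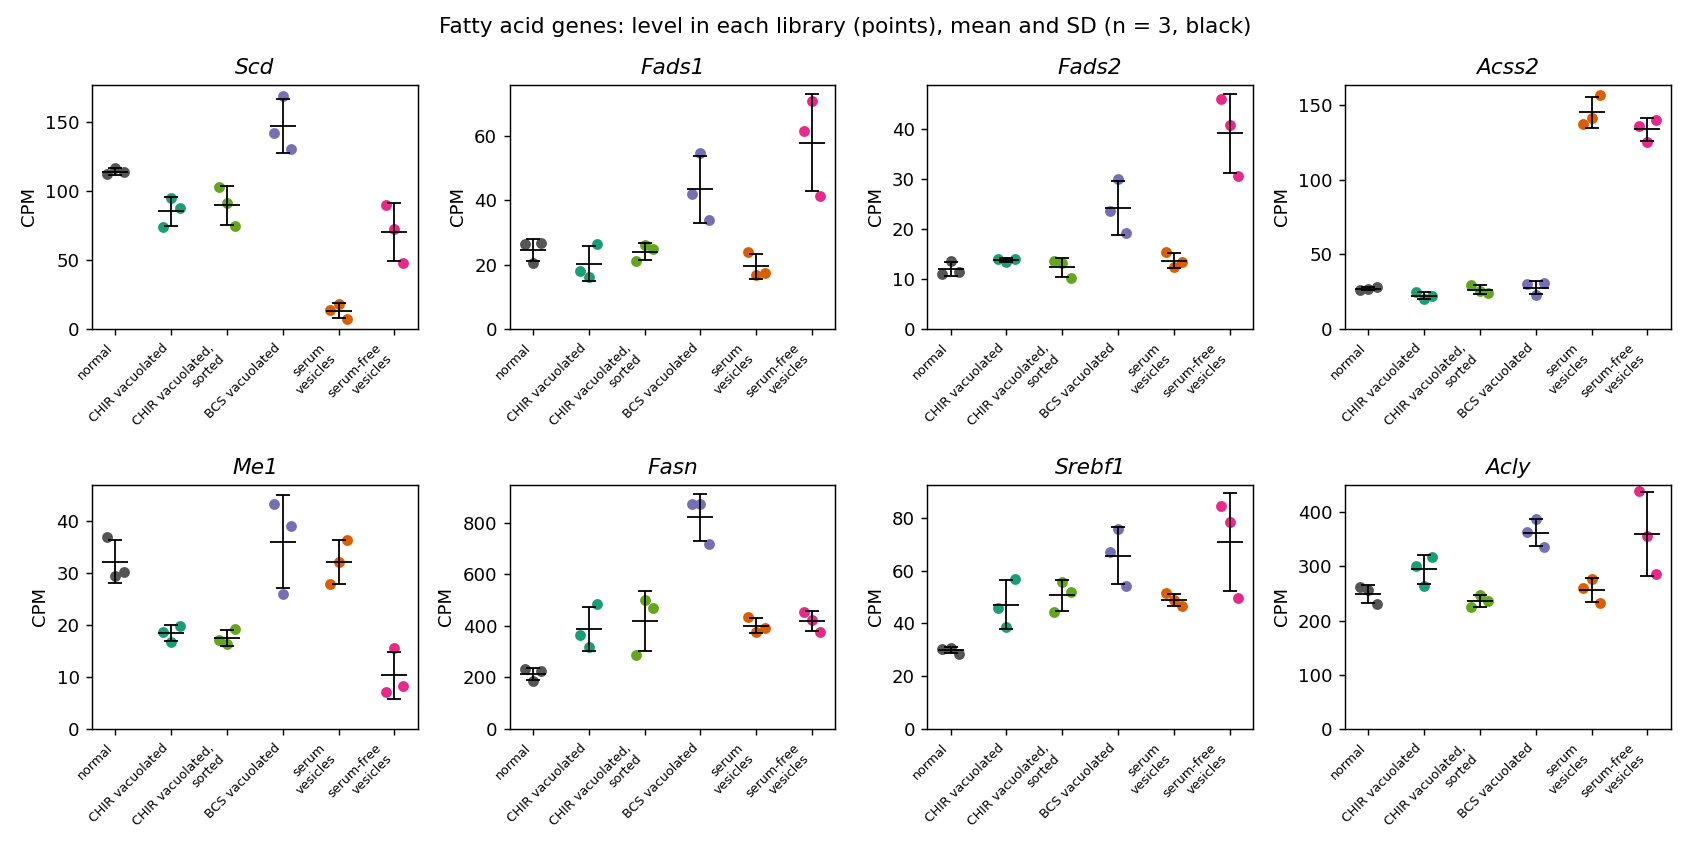
CPM of 8 fatty acid genes in each library (coloured points, 3 per group) with the group mean and SD in black. Scd is lowest in serum vesicles, Fads1 and Fads2 are highest in serum-free vesicles, Acss2 is high in both vesicle groups, and Fasn is highest in BCS-vacuolated cells.

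Against normal cells, serum vesicles had 4 of 13 fatty acid genes higher and 3 lower, and serum-free vesicles 7 and 3, which is 53.8% and 76.9% passing where 60.4% and 57.7% of all genes passed. Acss2, which makes acetyl-CoA from acetate, was high in every vesicle library. It stood at 26.0, 26.7 and 28.2 CPM in normal cells, 137, 141 and 157 in serum vesicles and 136, 125 and 139.9 in serum-free vesicles (5.37-fold, adjusted p = 2.72e-13, and 4.95-fold, 5.04e-13). The 3 vacuolated groups stayed between 20.4 and 30.6 CPM and did not pass against normal cells. Elovl5, an elongase of polyunsaturated fatty acids, rose 3.25-fold (14.8, 13.8 and 14.8 CPM, 9.03e-06) and 2.73-fold (11.9, 13.5 and 10.9 CPM, 7.59e-05) from 5.56, 3.45 and 4.24 CPM.

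Scd fell 8.39-fold in serum vesicles (adjusted p = 2.39e-09) and 1.64-fold in serum-free vesicles (0.00800). Acaca, which makes malonyl-CoA, fell in both, from 66.8, 57.0 and 62.7 CPM to 30.3, 27.6 and 41.5 (1.89-fold, 8.13e-04) and 42.9, 27.2 and 18.4 CPM (2.14-fold, 1.56e-04). Fasn, the next enzyme, rose in both, from 231, 185 and 223 CPM to 433, 377 and 391 (1.88-fold, 9.86e-05) and 455, 421 and 377 CPM (1.96-fold, 5.19e-05). The 2 enzymes of chain synthesis thus moved in opposite directions. Me1 fell 3.07-fold in serum-free vesicles (1.62e-06) and had a log2 fold change of -0.01 ± 0.21 in serum vesicles. Srebf1 rose 1.65-fold (0.00129) and 2.37-fold (1.97e-06). Fads2, Fads1 and Acly rose in serum-free vesicles by 3.26-fold, 2.34-fold and 1.45-fold (5.72e-08, 3.27e-05 and 0.00123). Elovl1, an elongase of saturated chains, fell 1.21-fold in serum vesicles (0.0353), a call that ended without normal replicate 1 or 3 or serum vesicle replicate 2 or 3 (adjusted p = 0.0534 to 0.110). This call also ended without the low count filter (adjusted p = 0.107).

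In the vacuolated cells the fatty acid genes that rose against normal cells by both unsorted routes were Fasn, Srebf1 and Pnpla3. Fasn, fatty acid synthase, stood at 231, 185 and 223 CPM in normal cells, 364, 316 and 483 CPM with CHIR99021 and 872, 874 and 716 CPM with BCS. The 3 groups did not overlap. The rise was 1.82-fold with CHIR99021 (adjusted p = 0.00230) and 3.85-fold with BCS (7.75e-08), and BCS-vacuolated cells had 2.12-fold more than CHIR99021-vacuolated cells (2.00e-04). Srebf1 stood at 30.3, 30.5 and 28.5 CPM in normal cells, 45.8, 38.5 and 57.0 CPM with CHIR99021 and 67.2, 75.8 and 54.3 CPM with BCS, a rise of 1.59-fold (0.0195) and 2.21-fold (6.50e-05), and the routes did not pass against each other (log2 fold change 0.48 ± 0.17, 0.0659).

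Pnpla3, a lipid droplet protein, stood at 1.08, 0.384 and 0.757 CPM in normal cells, 4.63, 3.62 and 4.92 with CHIR99021 and 1.87, 8.26 and 2.72 with BCS. It rose 5.80-fold (0.00782) and 5.80-fold (0.00369), on 13 counts in all normal libraries together, and BCS replicate 2 lay far above replicates 1 and 3. Without it the log2 fold change was 1.61 against 2.54 with it. Against normal cells, 3 of 13 fatty acid genes were higher and 1 lower with CHIR99021, where 4.49% and 3.13% of all genes were. With BCS 6 were higher and 1 lower (53.8% passing against 20.7% of all genes), and the median log2 fold change was 0.54 against -0.004 for all genes.

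The gene lower with CHIR99021 was Me1, at 18.6, 16.7 and 19.8 CPM against 37.0, 29.4 and 30.3 CPM in normal cells (1.75-fold, adjusted p = 0.0205), while with BCS it stood at 43.2, 26.0 and 39.0 CPM (0.16 ± 0.21, 0.639). With BCS, Fads2 rose 2.04-fold (23.6, 30.1 and 19.2 CPM, 6.32e-04), Fads1 1.77-fold (41.9, 54.5 and 33.8 CPM, 0.00858) and Acly 1.46-fold (364, 387 and 337 CPM, 0.00465). Gpam, which starts glycerolipid synthesis, fell 1.49-fold (20.9, 24.1 and 21.2 against 31.8, 35.5 and 31.8 CPM, 0.0138). Between the routes, 5 of 13 were higher with BCS and 1 lower, against 7.4% and 5.83% of all genes. Besides Fasn these were Fads1 (2.14-fold, 0.00134), Me1 (1.95-fold, 0.00395), Fads2 (1.75-fold, 0.00559) and Scd (1.73-fold, 0.0172), with Gpam lower (1.43-fold, 0.0345).

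Without 1 library the CHIR99021 calls ended of Srebf1 without replicate 1, 2 or 3 of the normal cells or replicate 1 or 3 of the CHIR99021 group (adjusted p = 0.0554 to 0.147), of Me1 without replicate 1 of the normal cells or replicate 1 or 2 of the CHIR99021 group (adjusted p = 0.0766 to 0.106) and of Pnpla3 without replicate 2 of the normal cells (adjusted p = 0.0561). The BCS calls that ended were those of Gpam without replicate 2 of the normal cells or replicate 1 or 3 of the BCS group (adjusted p = 0.0526 to 0.0720) and of Pnpla3 without replicate 2 of the BCS group (adjusted p = 0.0502). Between the routes they were those of Scd without replicate 1 of the CHIR99021 group or replicate 1 or 2 of the BCS group (adjusted p = 0.0575 to 0.0900) and of Gpam without replicate 1, 2 or 3 of the CHIR99021 group or replicate 1 or 3 of the BCS group (adjusted p = 0.0534 to 0.121). The call of Gpam between the routes also ended without the low count filter (adjusted p = 0.0541). With CHIR99021 the count was 2 without normal replicate 1 or 2 or CHIR99021-vacuolated replicate 1.

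Sorted cells had 4 fatty acid genes higher than normal cells and 1 lower (38.5% passing against 25.9% of all genes). Fasn rose 1.97-fold (285, 501 and 470.5 CPM, adjusted p = 2.56e-04), Pnpla3 6.08-fold (5.65, 4.25 and 4.02 CPM, 0.00202), Elovl5 2.98-fold (9.45, 15.4 and 14.7 CPM, 1.26e-04) and Srebf1 1.70-fold (44.2, 55.7 and 52.0 CPM, 0.00240), and Me1 fell 1.83-fold (17.1, 16.3 and 19.2 CPM, 0.00378). Against unsorted cells, Elovl5 was 2.15-fold higher (6.17, 6.55 and 5.74 CPM in unsorted cells, 0.00534) and Elovl1 1.33-fold lower (0.0142), where 11.7% of all genes passed. The call of Elovl1 ended without CHIR99021-vacuolated replicate 2 or 3 or sorted replicate 2 or 3 (adjusted p = 0.0510 to 0.0613), which left a count of 1. This call also ended without the low count filter (adjusted p = 0.0827). Fasn (log2 fold change 0.11 ± 0.17), Me1 (-0.07 ± 0.22) and Pnpla3 (0.07 ± 0.45) did not pass between sorted and unsorted cells.

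Summed over the list, the sterol genes took 1459 to 1523 CPM in normal cells, 1318 to 1371 with CHIR99021, 1299 to 1533 after the sort, 1839 to 1974 with BCS, 1681 to 1692 in serum-free vesicles and 1132 to 1356 in those with serum. BCS-vacuolated cells thus had the most and serum-free vesicles the next most, without overlap with any other group. The fatty acid genes, in whose sum Fasn and Acly weigh most, took 878 to 954 CPM in normal cells, 1005 to 1256 with CHIR99021, 919 to 1178 after the sort, 1556 to 1850 with BCS, 1153 to 1493 in serum-free vesicles and 1070 to 1129 in those with serum, and of these only BCS-vacuolated cells lay apart from every other group. No test was made on the sums.

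Other genes of the same routes, on a list of 26 for sterol uptake, transport and control and 40 for fatty acid handling, were counted in the same fit, and 23 and 34 of them were tested. Between serum-free and serum vesicles, 5 of 23 were higher and 1 lower on the sterol side, against 12.9% and 11.5% of all genes. The list shares were 21.7% and 4.35%. Soat1, which esterifies cholesterol, rose 1.63-fold (adjusted p = 1.49e-04), the lipoprotein receptor Scarb1 2.07-fold (4.82e-04) and the sterol-binding protein gene Tmem97 1.40-fold (0.00543), while Ggps1, which makes geranylgeranyl diphosphate from the product of Fdps, fell 1.79-fold (0.00760). On the fatty acid side 4 of 34 were higher and 4 lower, 11.8% each way, near the shares of all genes. Acsl1, an acyl-CoA synthetase, rose 2.45-fold (6.33e-07), and its relative Acsl4 fell 2.11-fold (3.78e-05).

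Between the routes to vacuolation, 8 of 23 were higher with BCS and 1 lower on the sterol side, against 7.4% and 5.83% of all genes, among them the lysosomal cholesterol carrier Npc2 (1.83-fold, adjusted p = 5.90e-05) and Soat1 (1.36-fold, 0.0116). On the fatty acid side 3 of 34 were higher and 1 lower (8.82% and 2.94%), near or under the shares of all genes. Aacs, which activates acetoacetate for lipid synthesis, was 2.85-fold higher with BCS (2.75e-05), Lpin1, a phosphatidate phosphatase, 2.33-fold higher (1.12e-04), and the elongation enzyme Hacd3 2.03-fold lower (3.63e-04). Against normal cells the sterol-side counts were 2 higher and 1 lower with CHIR99021, 8 and 1 with BCS, 5 and 3 after the sort, 9 and 6 in serum vesicles and 9 and 4 in serum-free vesicles. The fatty-acid-side counts were 0 and 3, 4 and 6, 3 and 8, 13 and 12, and 10 and 12 in the same order. Of all genes, 7.62%, 20.7%, 25.9%, 60.4% and 57.7% passed in these comparisons. In the vesicles 65.2% and 56.5% of the sterol-side genes passed, near those shares. A few genes, chosen after their values were seen, passed in the same direction in each comparison with normal cells, all of which share the 3 normal libraries. Npc1, which exports cholesterol from lysosomes, was higher by 1.68-fold (CHIR99021) to 3.31-fold (serum vesicles). Dgat1, which makes triglycerides, was lower by 1.62-fold (BCS) to 3.65-fold (serum-free vesicles), and Tmem97 by 1.32-fold (CHIR99021) to 4.08-fold (serum vesicles).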

How the data were processed

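RNA from 18 cultures of rat pXEN cells was depleted of ribosomal RNA and made into stranded libraries, per the labels' protocols. The deposited files hold raw read counts per gene in 3 columns, for both strands together and for each strand. Per the submitters' processing notes, the authors made these counts with bcl2fastq, Trimmomatic 0.38 and STAR 2.6.1 on the rn6 genome, and the counting rules are not given in the sources used here. The column of the strand with nearly all counts was used, and the opposite strand held 1.70 to 2.85%. Totals were 4.05 M to 12.1 M counts per library (median 7.09 M).

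Counts were fitted with edgeR 4.0.16 (limma 3.58.1, R 4.3.3) after its filter at a minimum count of 10 and TMM scaling, with a mean for each group over all 18 libraries and robust quasi-likelihood dispersions. The 8 comparisons were each adjusted by Benjamini-Hochberg over 11503 genes, with a threshold of 0.05. CPM used TMM-scaled library sizes, and the SE was taken from the fold change and its F value. Groups came from the sample titles. The code was tested on simulated data.

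Members, lists and markers were chosen with earlier results of these data known. For each comparison the members with up to the 4 smallest adjusted p in each direction were named, with the control genes and Fasn, Scd and Acly, and others as examples. Some list members that this rule picks are left out of the text. Alternatives were no low count filter, RLE scaling, DESeq2 1.42.0, only the groups compared, unstranded counts, passage as a covariate, a replicate block and each library left out. Promoters were RefSeq's on GRCr8.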

Additional observations from a re-analysis of the deposited data

How the results depend on the processing

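Of 108 calls of single genes over the 8 comparisons, 72 held in every alternative run (25 planned and 1 added), 36 were lost in 1 or more, and 0 turned direction. Of 164 values that did not pass, 35 passed in 1 or more. Between serum-free and serum vesicles, 4 sterol genes passed with those 2 groups alone against 11 with all libraries. The added fit with the vesicles of passages 32 and 35, chosen after seeing the data, gave 8 sterol and 6 fatty acid genes. Between sorted and unsorted cells 1 sterol gene passed, against 4 without the low count filter, 5 in DESeq2 and 7 with those 2 groups alone, and 2 fatty acid genes against 1 without that filter. Dropping the filter changes how many genes are tested, and the cause of the other changes was not tested. Shares of all genes were given for the main fit alone. The counts under other fits therefore do not tell a change in the listed genes from one in all genes. RLE scaling moved the median of all genes by under 0.1 (log2) in each comparison.

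With 1 library left out at a time, the sterol and fatty acid counts ran from 2 to 5 and 2 to 4 with CHIR99021 against normal, 4 to 6 and 6 to 7 with BCS, 6 to 9 and 5 to 6 after the sort, 7 to 12 and 6 to 7 in serum vesicles, and 9 to 12 and 10 to 12 in serum-free vesicles. They ran from 8 to 12 and 5 to 7 between the vesicles, 0 to 5 and 1 to 2 between sorted and unsorted cells, and 6 to 10 and 4 to 7 between BCS and CHIR99021.

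The titles number the libraries 1 to 3 in each group, but same-numbered libraries did not deviate together (r of -0.23 to 0.104 over 45 pairs, across genes). For 7 of 18 libraries the mean correlation with libraries of the other groups was highest for their own of the 3 numbers. A replicate block gave 8 sterol genes against 7 after the sort, 10 against 11 in each vesicle group against normal cells, and 11 fatty acid genes against 10 in serum-free vesicles, and left the other counts as they were (5, 6, 11, 1 and 9 sterol genes and 4, 7, 5, 7, 6, 2 and 6 fatty acid genes). It ended the calls of Hsd17b7 in serum vesicles (adjusted p = 0.0576) and Sqle in serum-free vesicles (0.0532). Among the genes tested, Pmvk and Pnpla3 had the fewest counts over all libraries, 291 and 421.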

Other observations

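Some genes of the list spread widely within a group. Ebp, a sterol isomerase, had 38.5, 20.6 and 26.3 CPM in serum vesicles and 14.3, 25.9 and 40.9 CPM in serum-free vesicles, and the groups overlapped. Acaca measured 42.9, 27.2 and 18.4 CPM in the 3 serum-free libraries, with replicate 3, of passage 42, the lowest. That library was the lowest of its group in 8 of 13 fatty acid genes, Scd, Fads1, Fads2, Srebf1 and Acly among them.

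BCS-vacuolated replicate 2 was the highest of its group in 15 of 21 sterol and 9 of 13 fatty acid genes. Serum vesicle replicate 1 was the highest in 15 of 21 sterol genes, and CHIR99021-vacuolated replicate 3 in 12 of 21 sterol and 10 of 13 fatty acid genes. Pparg, the adipogenic nuclear receptor, stood at 2.96 ± 0.835 CPM in serum-free and 0.346 ± 0.385 CPM in serum vesicles (7.43-fold higher, adjusted p = 4.03e-04, edgeR's quasi-likelihood test), on 7 counts in the serum vesicle libraries together, beside adipocyte markers that summed to at most 2.91 CPM.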
